A study of Mus musculus with 18 samples.

Results

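Lungs of mouse embryos that lack Vangl2 were compared by bulk RNA-Seq with lungs that keep it, on a background in which Vangl1 is disrupted in every embryo. The comparison rests on 6 of the 18 libraries of the series, 3 from Vangl control lungs (genotype Vangl1-/-) and 3 from Vangl mutant lungs (genotype Vangl1-/-; Vangl2-/-), all collected at E12.5. The genes described here are the 14303, of 23420 listed, with 10 or more normalized counts in 3 or more of these 6 libraries. A normalized count is the number of reads on a gene divided by a size factor of the library, which lay between 0.952 and 1.07, so that a value of 10 rests on about that many reads. The question was which genes differ once the remaining Vangl gene is removed. The Vangl1 allele is a gene trap (Vangl1gt) carried by controls and mutants alike. In the mutants a floxed Vangl2 allele is made null by Sox2-Cre, a transgene active early in the embryo, so that Vangl2 is lost in all tissues and not in the lung alone. The Vangl2 and Cre genotypes of the sequenced controls, and the number of lungs in a library, are not given in the sources used here. A whole lung holds epithelium, mesenchyme, vessels and nerves, and in such bulk RNA fewer cells of a type cannot be told apart from less RNA per cell.

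Planar cell polarity (PCP) is the alignment of cells within the plane of a tissue. Its core proteins sort to opposite faces of neighbouring cells: Vangl and Prickle gather on one face and Frizzled, Dishevelled and Diversin on the other, while the Celsr cadherins join the faces. In vertebrates, Wnt5a and its receptors of the Ror family act on Vangl2, and the pathway reaches the cytoskeleton through Daam formins, small GTPases and the Rock kinases. In the lung the pathway is known for its part in the branching of airways.

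Vangl2 had the smallest p of the genes tested, although some other genes, mostly at low levels or linked to embryo sex, differed more on the log2 scale. Its normalized count was 277, 406 and 334 in controls 1, 2 and 3, against 86.5, 79.8 and 89.6 in mutants 1, 2 and 3. All 3 mutants lay close together and far below every control. The mean of the mutants, 85.3 ± 5.01 (SD, n = 3), was 25.2% of the mean of the controls, 339 ± 64.9 (SD, n = 3). Vangl2 fell by 1.96 on the log2 scale (SE 0.17), with an adjusted p of 0.0318 by limma's moderated test over all 14303 genes, while the exact permutation p (two-sided) was 0.1, the smallest that 3 libraries against 3 can give. The gene lies on the minus strand at chr1:172000960-172028444 (GRCm38, the build named mm10 in the submitters' processing notes). The table gives 1 value per gene, so the exons from which the remaining reads came are not resolved.

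Vangl1, the trapped gene, stood at 162, 219 and 113 normalized counts in controls 1, 2 and 3 and at 239, 274 and 242 in the mutants. In the lungs of the other 2 experiments of the series, whose labels name no Vangl1 allele, the level was 410 to 500 at the same stage and 409 to 508 at E13.5. Those tables were normalized on their own, so the levels are set side by side without a test. Vangl2 in those libraries ranged from 308 to 355 and from 296 to 367, near the Vangl controls. Between the Vangl groups, Vangl1 was 0.65 higher in the mutants on the log2 scale (SE 0.23, limma adjusted p = 0.23), and the groups did not overlap. Its transcript is 6531 bases long, and the difference was 0.33 once the trend of each library on transcript length, described below, was removed.

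**Figure D1:**
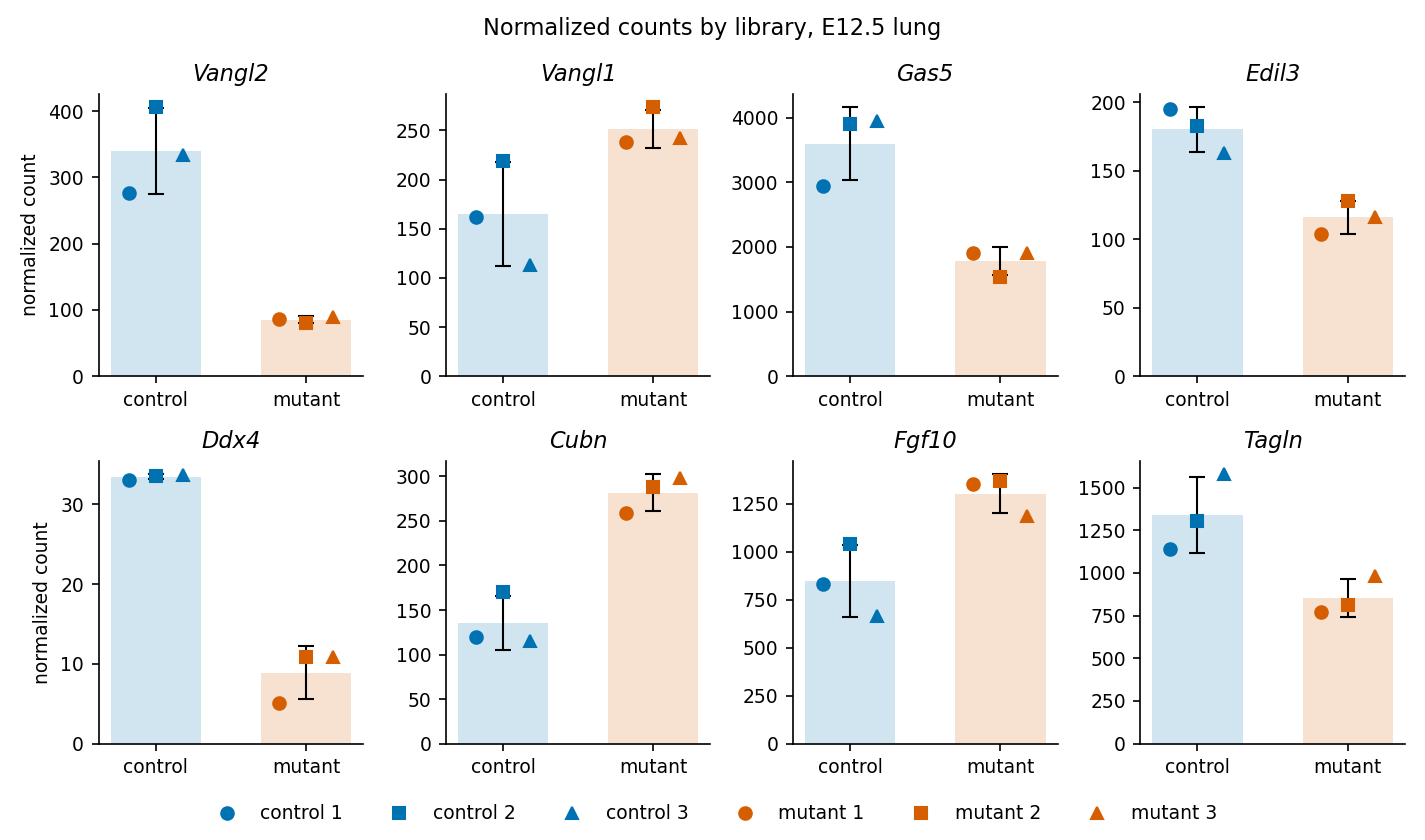
Normalized counts (linear y axes from 0) of 8 genes in each library of control (blue) and mutant (orange) lungs at E12.5; bars are means, error bars SD (n = 3) and symbols single libraries. Vangl2 falls from a mean of 339 to 85.3, and the symbols of the groups do not overlap in any of the 8 panels. The 8 genes were picked for display and not drawn at random. Over all genes tested the groups did not overlap for 3184 of 14303 (22.3%).

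The libraries differed in ways that cross the labels. Between 19066208 and 19814346 reads lay on genes in each of the 6. Controls 1 and 3 held more reads of short transcripts and fewer of long ones than the other 4 libraries. Among the 755 genes whose longest transcript is under 1 kb, the median deviation from the gene mean was 0.36 and 0.42 on the log2 scale in controls 1 and 3. It was -0.13 in control 2 and between -0.29 and -0.16 in the mutants. Among the 820 genes of 8 kb or more the order turned, with -0.43 and -0.51 in controls 1 and 3, 0.17 in control 2 and 0.21 to 0.32 in the mutants. Control 2 thus stood with the mutants on this axis. Across the genes, the log2 difference between mutants and controls had a Spearman correlation of 0.716 with transcript length (14195 genes of the same 6 libraries, a description without a test). The first principal component, with 51.7% of the variance, placed controls 1 and 3 at -30.1 and -44.7 and control 2 at 17.0, beside the mutants at 15.1 to 21.5. With the length trend removed, this component (38.7% of the variance) still placed control 2, at 14.8, among the mutants at 9.49 to 20.6. Controls 1 and 3 then lay at -18.8 and -35.7, so removal of the trend did not bring control 2 to the other controls.

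**Figure D2:**
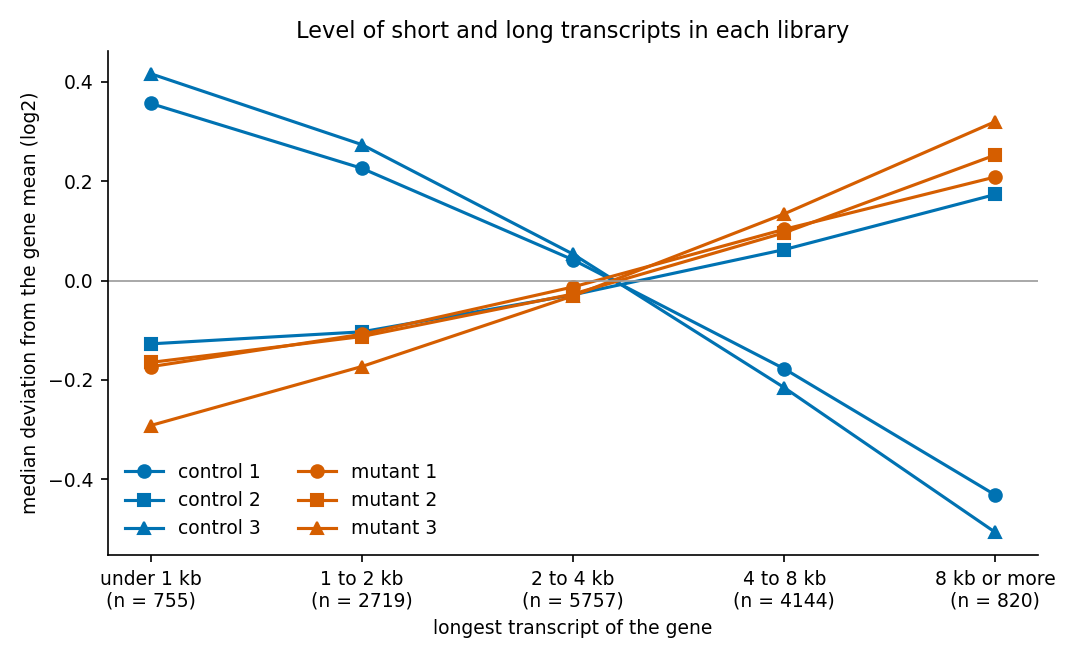
Median deviation from the gene mean (log2, y axis) of the genes in 5 classes of transcript length (x axis), 1 line per library (blue controls, orange mutants). Controls 1 and 3 slope down from 0.36 and 0.42 to -0.43 and -0.51, whereas control 2 slopes up with the mutants.

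The same 2 controls held more reads on Rn45s and on ribosomal protein genes. Rn45s, the precursor of ribosomal RNA, was at 48797, 23823 and 54311 normalized counts in controls 1, 2 and 3 and at 22330, 28165 and 24051 in the mutants. Genes of the cytosolic ribosome took 7.33%, 4.93% and 7.97% of the reads on genes in the controls and 4.46% to 4.92% in the mutants. The embryos also differed in sex. Xist, the RNA that coats the inactive X chromosome of females, stood at 1832, 7.46 and 66.2 in the controls and at 19069, 22698 and 10.8 in the mutants. Ddx3y, a gene of the Y chromosome, was at 984, 1560 and 1565 in the controls and at 3.02, 0 and 1790 in the mutants. Mutants 1 and 2 thus held female RNA and mutant 3 male RNA, controls 2 and 3 held male RNA, and control 1 held Y-linked RNA together with some Xist. Without mutant 3, the Y-linked genes Kdm5d, Uty, Eif2s3y and Ddx3y were the 4 genes that passed the test, all lower in the mutants. The part of embryo sex and of ribosomal RNA in the differences below was not tested.

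**Figure D3:**
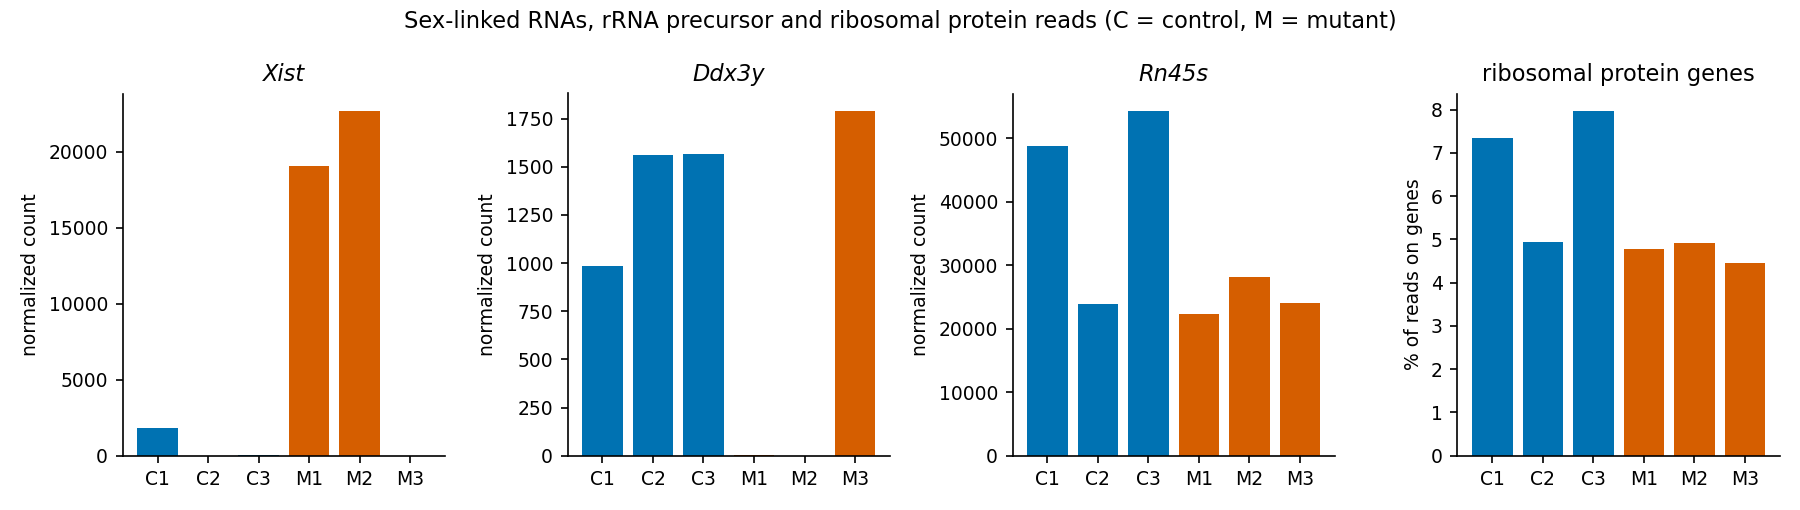
Normalized counts of Xist, Ddx3y and Rn45s and the percent of reads on ribosomal protein genes (bars from 0) in controls C1 to C3 (blue) and mutants M1 to M3 (orange). Xist is high in M1 and M2, where Ddx3y is at 3.02 and 0, and the Rn45s and ribosomal protein bars are highest in C1 and C3.

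Across the genes tested, 1 of 14303 passed an adjusted p of 0.05 (0.00699%), and that gene was Vangl2, also by edgeR. DESeq2 with its default filtering gave Vangl2 no adjusted p and called 11 other genes, whereas without independent filtering it called 20, Vangl2 among them (adjusted p = 6.42e-17). Of the 11, Gas5, Beta-s, Atp5e, Rpl15 and Tceb2 fell, and Tshz1, Cbx5, Akap5, Peg10, Nucks1 and Epha3 rose. Of the genes in the lists described below, these include Atp5e and Rpl15. At an unadjusted p of 0.05, 1714 genes were higher (12%) and 1224 lower (8.56%) in the mutants. The groups did not overlap for 3184 genes (22.3%), 1942 of them higher (13.6%) and 1242 lower (8.68%). Of the higher ones, 82.5% had a transcript of 4 kb or more, against 35% of all genes tested. Of the lower ones, 60.8% had a transcript under 2 kb, against 24.5%. Without control 2, 3073 genes rose (21.5%) and 3110 fell (21.7%) at an adjusted p of 0.05, and that count rests on the absence of this library. When the trend of each library on transcript length was removed, Vangl2 was again the gene that passed (log2 difference -2.28, limma adjusted p = 0.000354), and 530 genes were higher (3.73%) and 570 lower (4.02%) at an unadjusted p of 0.05. With both that removal and control 2 left out, 565 genes rose (3.98%) and 1184 fell (8.34%). These percentages are the background for every count below.

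Of the 16 core PCP genes, Vangl2 was the one that passed the test. At an unadjusted p of 0.05, 6 others were higher, and the groups did not overlap for 4 higher genes and for Vangl2. The median log2 difference of the list was 0.32 (-0.01 over all genes), and it was -0.01 with the length trend removed. Fzd3, a Frizzled receptor, was at 739, 1086 and 684 in the controls and at 1212, 1349 and 1269 in the mutants, a difference of 0.64 (SE 0.17, limma adjusted p = 0.23). Its transcript is 12734 bases long, and with the length trend removed the difference was 0.05. The cadherins of the pathway also come from long transcripts. Celsr1 was 0.53 higher and Celsr2 0.55 higher, and the values were -0.01 and 0.02 without the length trend. Celsr3, whose transcript is the longest of the 3 and whose values were only 6.31 to 26.6, was 1.01 higher and 0.45 higher without the trend.

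Dvl3, a Dishevelled protein of the cytoplasm, was at 978, 1368 and 804 in the controls and at 1335, 1402 and 1543 in the mutants, where control 2 lay inside the range of the mutants. Its difference of 0.47 (SE 0.18) was 0.38 without the length trend. Dvl1 (-0.11, SE 0.11) and Dvl2 (-0.03, SE 0.09) overlapped between the groups. Prickle1 (0.10, SE 0.11), Prickle2 (0.36, SE 0.17) and Prickle3 (-0.18, SE 0.15), the partners of Vangl on its face of the cell, overlapped too. Scrib, a scaffold that binds Vangl2, differed by 0.12 (SE 0.10), Fzd6 by 0.04 (SE 0.18) and Ankrd6, which encodes Diversin, by 0.38 (SE 0.17). Ptk7, a pseudokinase receptor and the most abundant of the list, ranged from 4940 to 6585 in the controls and from 6583 to 7146 in the mutants.

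The second polarity system, of the giant cadherins Fat and Dachsous, comes from some of the longest transcripts of the genome, and its median difference was the largest among the pathways, 0.82 over 6 genes. Fat1 was at 2198, 4316 and 1679 in the controls and at 4622, 4825 and 4980 in the mutants. Control 2 lay just below the mutants and controls 1 and 3 far below. Fat4 (0.90, SE 0.32) and Dchs1 (0.69, SE 0.30), a receptor and its ligand, overlapped between the groups, since control 2 lay among the mutants for Fat4 and above all of them for Dchs1. With the length trend removed, the median was 0.20. The median transcript of these genes has 14671 bases.

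Among 11 ligands and receptors of noncanonical Wnt signalling, none passed the test (limma; 3 higher and 1 lower at an unadjusted p of 0.05, and 0 by edgeR). Wnt5a, the ligand studied in the other experiments of the series, was at 218, 529 and 208 in the controls and at 289, 313 and 516 in the mutants. The groups overlapped, with control 2 the highest library and controls 1 and 3 below every mutant. The difference was 0.32 with all libraries, 0.76 without control 2 (limma adjusted p = 0.0165) and -0.03 with the length trend removed. Ror1, a receptor of Wnt5a, was at 909, 1315 and 824 in the controls and at 1661, 1584 and 1577 in the mutants. Every mutant lay above every control, and the difference was 0.69 (SE 0.17, limma adjusted p = 0.23), or 0.43 without the length trend. Gpc6, a glypican of the cell surface, was at 1460, 2328 and 1470 against 2503, 2634 and 2732, with differences of 0.62 and 0.58. Fzd7 was 0.40 higher (SE 0.14) and Fzd2, the most abundant member, 0.06 higher (SE 0.09).

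The 21 effectors downstream of the core proteins had a median difference of 0.14, and -0.02 without the length trend. Rock1 and Rock2, kinases that activate myosin, were 0.44 (SE 0.13) and 0.47 (SE 0.16) higher, with groups that did not overlap, and 0.13 and 0.08 higher once the length trend was removed. Sec24b, which loads Vangl2 into transport vesicles, was 0.31 higher (SE 0.11) and 0.11 without the trend. Cdc42, the most abundant of the effectors, was at 14368, 11953 and 15812 in the controls and at 12288, 11820 and 11999 in the mutants. Here again control 2 lay with the mutants.

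The signalling pathways that shape lung buds showed a few receptors and ligands with separate groups. The mutants lay above the controls for 5 of 15 Fgf genes (33.3%), 4 of 12 Hedgehog genes (33.3%) and 6 of 19 Bmp genes (31.6%). That share was 13.6% over all genes, 5.28% over genes of 2 to 4 kb and 29.8% over genes of 4 to 8 kb. The median transcripts of the 3 lists have 3975, 4486.5 and 3745 bases. Fgf10, the mesenchymal growth factor that draws out new buds, was at 832, 1040 and 666 in the controls and at 1353, 1366 and 1187 in the mutants. All mutants lay above all controls, and the difference of 0.64 (SE 0.16, limma adjusted p = 0.23) was 0.53 without the length trend. Fgf9 was 0.66 higher (SE 0.21), and Spred2, an inhibitor of the Ras and ERK branch of Fgf signalling, was at 627, 844 and 603 against 1040, 1013 and 1031. Etv5, a target of Fgf signalling in the bud tips, was higher by 0.14 (SE 0.09). Of 15 Fgf genes, 4 were higher and 0 lower at an unadjusted p of 0.05, none passed the adjusted threshold (0 by edgeR), and the median was 0.14, or 0.05 without the length trend.

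Of 12 Hedgehog genes, 4 were higher at an unadjusted p of 0.05, none passed the adjusted threshold (limma, and 0 by edgeR), and the median was 0.25. Gli3, a transcription factor of the pathway, was at 1856, 2969 and 1646 in the controls and at 3560, 3507 and 3687 in the mutants. Ptch1, the receptor of Shh and a target of its signal, was at 1521, 3148 and 1715 against 3327, 3350 and 3668. Hhip, which binds Shh and is a target as well, was at 825, 1723 and 811 against 1742, 1764 and 2016. In each of these the mutants lay above the controls, and control 2 lay much nearer to the mutants than to the other controls. Without the length trend the differences were 0.36, 0.38 and 0.34. Smo, the transducer of the pathway and its most abundant member, differed by 0.02 (SE 0.09).

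Among 19 Bmp genes the receptor Bmpr2 was at 307, 668 and 369 in the controls and at 769, 846 and 918 in the mutants. The difference was 0.99 (SE 0.26), and 0.40 without the length trend, its transcript being 12899 bases long. Smad9 was 0.42 higher (SE 0.14) and 0.19 without the length trend. Bmpr1a was 0.27 higher (SE 0.10) and -0.01 without the length trend. Readouts of canonical Wnt signalling had a median of 0.10 over 15 genes, or 0.03 without the length trend. Lef1, both a mediator and a target, was at 1304, 1217 and 1210 in the controls and at 1557, 1463 and 1478 in the mutants. For this gene control 2 lay with the other controls, and the difference was 0.27 (SE 0.09) or 0.23 without the length trend. Axin2, the feedback target most often used as a readout, was 0.22 higher (SE 0.10), Tnfrsf19 0.24 higher (SE 0.09) and Znrf3 0.46 higher (SE 0.20), while Ccnd1 was 0.10 higher (SE 0.09).

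**Figure D4:**
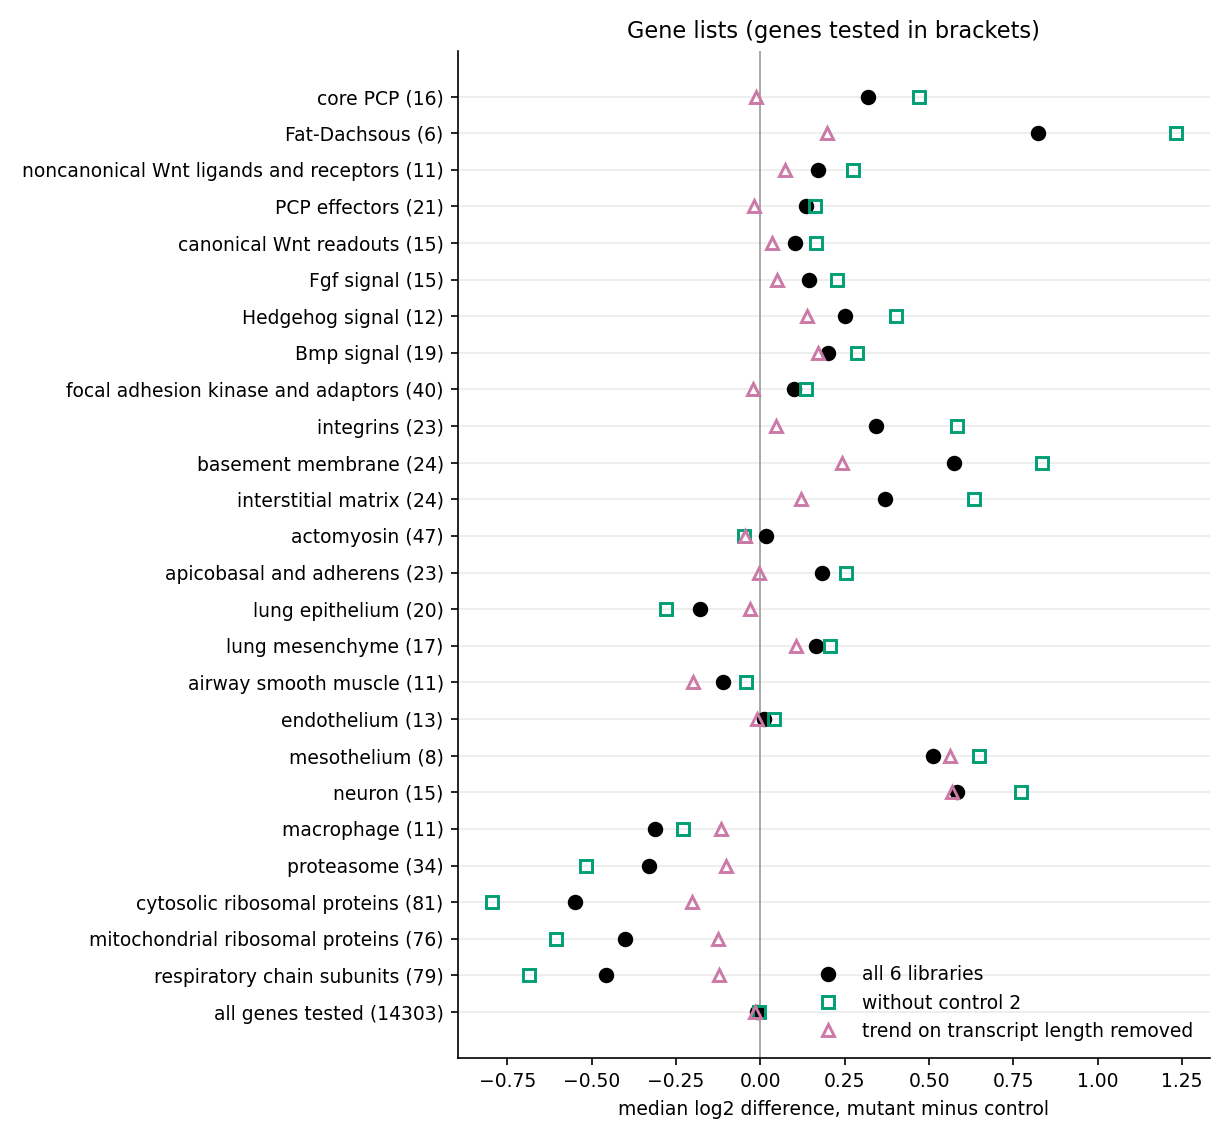
Median log2 difference (mutant minus control, x axis) of each gene list and of all genes tested (y axis, number of genes tested in brackets) with all 6 libraries, without control 2, and after removal of the length trend. Basement membrane lies at 0.57, 0.83 and 0.24 and cytosolic ribosomal proteins at -0.55, -0.79 and -0.20, while mesothelium and neuron move little when the length trend is removed.

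Cell adhesion, the extracellular matrix and actomyosin were a theme of the study, which used these samples among others to choose it, so the lists below are not independent evidence of a direction. Basement membrane genes differed most. Of 24, none passed the adjusted threshold with all 6 libraries by limma, and 0 by edgeR and by DESeq2. At an unadjusted p of 0.05, 19 were higher and 0 lower, and the groups did not overlap for 10 (41.7%). The median transcript of the list has 6493 bases. Among all genes of 4 to 8 kb, 29.8% were higher without overlap, and among those of 8 kb or more 43.7%. Without control 2, 23 of the 24 rose. With the length trend removed, the median of 0.57 became 0.24 and 8 were higher at an unadjusted p of 0.05. With the trend removed and control 2 left out, 16 rose. The summed level of the list was 48093 to 92224 in the controls and 91822 to 97551 in the mutants, and the highest control, control 2, lay within the mutants.

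Laminins, the trimers on which the basement membrane is built, gave the clearest values of this list. Lama1, an alpha chain of embryonic laminin, was at 440, 684 and 366 in the controls and at 757, 844 and 742 in the mutants. Lama2 was at 287, 580 and 223 against 597, 715 and 680. Lamc3, the least abundant of those named, was at 26.9, 58.7 and 17.9 against 71.5, 82.8 and 65.0. In all 3 genes the mutants lay above the controls, control 2 lay next to them, and the differences of 0.70, 0.99 and 1.22 were 0.22, 0.50 and 0.95 without the length trend. Lamb1 (0.54, SE 0.19) and Lamc1 (0.70, SE 0.23), chains that most laminins share, were 0.28 and 0.31 higher without the trend. Lama3 was 0.61 higher (SE 0.20), Lama4 0.43 (SE 0.20), Lama5 0.92 (SE 0.33) and Lamb2 0.45 (SE 0.24), and without the trend these values were 0.09, 0.15, 0.37 and 0.20. Lamb3 differed by -0.02 (SE 0.13). Col4a1, the most abundant basement membrane gene, was at 9191, 13985 and 7281 in the controls and at 14269, 13760 and 15185 in the mutants, with overlapping groups.

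Interstitial matrix genes, such as collagens and fibronectin, had a median of 0.37 over 24 genes, and for none of them were the groups separate. Without control 2 the median was 0.63 and 18 rose, and 10 rose when the length trend was removed as well. Fn1, fibronectin, was at 5870, 12323 and 4670 in the controls and at 9457, 11822 and 10447 in the mutants, where control 2 was the highest of all libraries. Integrins, the receptors for these proteins, had a median of 0.34 over 23 genes and 0.05 without the length trend, while without control 2 it was 0.58 and 14 rose. Itga3 and Itga8, alpha chains that pair with the beta chain Itgb1, were 0.58 (SE 0.18) and 0.54 (SE 0.18) higher, Itga2 was 0.63 higher (SE 0.21), and Itgb1 itself was 0.12 higher (SE 0.10).

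The focal adhesion kinase Ptk2 was at 2438, 2556 and 2507 in the controls and at 2527, 2623 and 2818 in the mutants, a difference of 0.09 (SE 0.09, limma adjusted p = 0.56). The groups overlapped, mutant 1 lying below control 2. Among the 40 kinases and adaptors of the list the median was 0.10, or -0.02 without the length trend, and none passed the adjusted threshold (limma, and 0 by edgeR; 9 higher and 0 lower at an unadjusted p of 0.05). Dock1, an activator of Rac, was 0.40 higher (SE 0.13), Crkl 0.28 (SE 0.10) and Lpp 0.83 (SE 0.29), and these values were 0.07, 0.08 and 0.18 without the trend. Actn4, the most abundant, differed by 0.02 (SE 0.08).

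The 47 actomyosin genes had a median of 0.02, and an unadjusted p under 0.05 was met by 11 genes that were higher and 6 that were lower, with none past the adjusted threshold (limma, and 0 by edgeR). Ppp1r12a, the targeting subunit of myosin phosphatase, was at 1374, 1927 and 1383 in the controls and at 2157, 2139 and 2187 in the mutants. Its difference of 0.49 (SE 0.14) was 0.46 without the length trend, the transcript being of ordinary length. Diap1 and Diap3, formins that extend actin filaments, were 0.37 (SE 0.10) and 0.33 (SE 0.10) higher, and 0.11 and 0.18 without the length trend. Cfl1, cofilin, which severs actin filaments, was at 34330, 26504 and 35190 in the controls and at 28521, 24895 and 25346 in the mutants. Control 2 lay within the mutants for cofilin, and the difference was -0.28 (SE 0.14, limma adjusted p = 0.28). Actb differed by 0.02 (SE 0.14).

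Markers of the lung were present in every library, so the tissue label held. The summed level of 20 epithelial markers was 30666 to 36565 in the controls and 31216 to 35264 in the mutants, that of 17 mesenchymal markers 69157 to 125716 and 102318 to 123299, and that of 13 endothelial markers 16149 to 18323 and 17406 to 18581. None of the epithelial genes passed an unadjusted p of 0.05, by limma, and 0 passed the adjusted threshold by edgeR. Foxa2, a transcription factor of the airway lineage, was at 800, 602 and 801 in the controls and at 655, 526 and 760 in the mutants. Cdh1, E-cadherin, differed by 0.18 (SE 0.12) and Ctnnb1, beta-catenin, by -0.03 (SE 0.10). Sftpc, an early marker of the distal tips, differed by -0.38 (SE 0.20), and Irx1 and Irx2 by -0.27 (SE 0.13) and -0.19 (SE 0.10).

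In the mesenchyme, Twist2 and Tcf21 went the other way from Fgf10. Twist2 was at 530, 477 and 525 in the controls and at 380, 390 and 375 in the mutants, so that control 2 lay with the controls. The difference was -0.42 (SE 0.10, limma adjusted p = 0.23), and -0.34 without the length trend. Tcf21, a transcription factor of lung fibroblasts, was at 1859, 1780 and 1884 against 1394, 1563 and 1431. Its difference of -0.33 (SE 0.09) was -0.15 without the trend. Col3a1 overlapped between the groups (0.35, SE 0.26).

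Among 11 genes of airway smooth muscle the median was -0.11, or -0.20 without the length trend. The summed level of the list overlapped between the groups, at 13197 to 17006 in the controls and 12046 to 15599 in the mutants. Tagln, transgelin, was at 1140, 1303 and 1576 in the controls and at 769, 813 and 981 in the mutants, a difference of -0.64 (SE 0.15) and of -0.43 without the length trend. Actg2, smooth muscle gamma actin, was at 1033, 1228 and 1510 against 825, 495 and 953. Acta2, the most abundant of the list, was at 4924, 5709 and 6782 against 3234, 4332 and 5086, and there mutant 3 overlapped the controls. Of the 11 genes, 4 were lower and 1 higher (Hhip) at an unadjusted p of 0.05, 1 was lower once the length trend was removed, and none passed the adjusted threshold by limma or edgeR.

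Neuronal and mesothelial markers had medians of 0.58 (15 genes) and 0.51 (8 genes), which were 0.57 and 0.56 with the length trend removed. Each list had 4 genes that were higher and 0 lower at an unadjusted p of 0.05, and none passed the adjusted threshold by limma or edgeR. The mutants lay above the controls for 1 of the 15 neuronal genes (6.67%) and 2 of the 8 mesothelial genes (25%), against 13.6% of all genes. The summed neuronal level was 1764 to 3047 in the controls and 3310 to 4027 in the mutants, and without Dcx, the largest part of the sum, the groups overlapped at 1171 to 1695 and 1455 to 2322. The summed mesothelial level overlapped too, at 5161 to 7247 and 6517 to 10693. Dcx, a microtubule protein of migrating neurons, was at 826, 1352 and 594 in the controls and at 1932, 1855 and 1705 in the mutants, a difference of 1.07 (SE 0.26) and of 0.60 without the trend. Nefl, a neurofilament, ranged from 62.0 to 124 and from 99.5 to 193, and Elavl3 from 13.7 to 50.3 and from 40.4 to 91.6, both with overlapping groups. Wt1, a transcription factor of the mesothelium, was at 578, 684 and 414 in the controls and at 779, 1182 and 680 in the mutants. Mutant 2 was the highest library for Wt1, for Lrrn4 (217 to 674 against 547 to 1074) and for Gpm6a (277 to 408 against 425 to 588), and Aldh1a2 differed by 0.17 (SE 0.19).

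Of 11 macrophage markers, 0 were higher and 4 lower at an unadjusted p of 0.05. None passed the adjusted threshold by limma or edgeR. The mutants lay below the controls for 3 (27.3%, against 8.68% of all genes). The median transcript of the list has 1230 bases. Among all genes of 1 to 2 kb, 20.01% were lower without overlap, and among those under 1 kb 27.2%. The median of -0.31 was -0.12 without the length trend. Fcer1g, a signalling chain of Fc receptors, was at 198, 152 and 266 in the controls and at 87.6, 123 and 97.5 in the mutants. C1qb and C1qc, subunits of complement C1q, differed by -0.58 (SE 0.20) and -0.60 (SE 0.19), with groups that just cleared each other, while Mrc1, the most abundant, differed by 0.21 (SE 0.11). Heart muscle genes varied within each group, with a summed level of 1811 to 5894 in the controls and 639 to 8270 in the mutants. Summed markers of thyroid and thymus stayed at 16.1 to 28.9 in all 6 libraries and those of stratified epithelium at 71.5 to 254.

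Genes of the cytosolic ribosome and of the respiratory chain, which have short transcripts, were lower in the mutants as a body. Of 81 ribosomal protein genes, whose median transcript has 906 bases, 59 were lower and 0 higher at an unadjusted p of 0.05. The groups did not overlap for 19, all lower (23.5%), against 27.2% lower without overlap among all genes under 1 kb. None of the 81 passed the adjusted threshold by limma or edgeR with all 6 libraries. Rpl15 did by DESeq2, and without control 2, 78 of the 81 fell. The median of -0.55 was -0.20 with the length trend removed, and 49 fell when control 2 was left out as well. Their summed level was 1444988, 910008 and 1613268 in the controls and 919100, 933296 and 836773 in the mutants. Control 2 lay inside the range of the mutants. Many ribosomal protein genes have near-identical pseudogenes with which reads can be shared, so single values are uncertain.

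Rpl15, a protein of the large subunit, was at 9722, 6849 and 12952 in the controls and at 5945, 4054 and 4531 in the mutants, a difference of -0.99 (SE 0.23) and of -0.83 without the length trend. Rps21 was at 5787, 3601 and 5734 against 3228, 3185 and 2672, and Rpl34 at 204, 126 and 179 against 93.6, 103 and 87.6. Rpsa, the most abundant, was at 71613, 43853 and 76751 against 47745, 42926 and 40406. Messenger RNAs of this group are known to begin with a run of pyrimidines, through which their translation is controlled together, and the DNA around their starts is shown here because the genes differed in 1 direction. The 15 bases before and the 15 bases from the RefSeq start (GRCm38.p6, on the strand of the gene, 5′ to 3′) are given for the 4 named genes, with any CTTTC in capitals.
Rpl15 (chr14:18270972-18271001, minus strand): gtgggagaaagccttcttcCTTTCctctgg
Rpl34 (chr3:130730384-130730413, minus strand): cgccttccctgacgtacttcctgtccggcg
Rps21 (chr2:180257364-180257393, plus strand): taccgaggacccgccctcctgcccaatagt
Rpsa (chr9:120127751-120127780, plus strand): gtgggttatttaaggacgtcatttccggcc
The letters CTTTC stood in 16 of 60 ribosomal protein genes with a RefSeq start (26.7%) and in 344 of 10488 genes tested with one (3.28%). On the opposite strand, where they read GAAAG, they stood in 3 (5%) and in 270 (2.57%). Only these letters were searched for, so other runs of pyrimidines were not counted. Of the 4 sequences shown, Rpl15 alone holds CTTTC, and all 4 genes were lower in every mutant than in controls 1 and 3. Whether these letters have a part in the RNA levels was not tested.

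Of 79 subunits of the respiratory chain, whose median transcript has 875 bases, 58 were lower and 0 higher at an unadjusted p of 0.05. The mutants lay below the controls for 18 (22.8%), against 27.2% of all genes under 1 kb. Atp5e passed the adjusted threshold by DESeq2 and none by limma or edgeR. The median log2 difference was -0.46, or -0.12 without the length trend. Atp5e, a small subunit of ATP synthase, was at 2046, 1245 and 2089 in the controls and at 956, 1039 and 900 in the mutants. Cox6c was at 2322, 1654 and 2441 against 1440, 1398 and 1273, and Ndufa2 at 1324, 877 and 1346 against 723, 828 and 656. For all 3 genes control 2 lay close above the mutants. Atp5b, the most abundant, differed by -0.27 (SE 0.14).

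Among the genes with the widest gap between the groups, which by construction place control 2 with the controls, the lower ones held the larger gaps. Gas5, a noncoding RNA whose introns carry small nucleolar RNAs (chr1:161034422-161038539, plus strand), was at 2943, 3907 and 3945 in the controls and at 1901, 1528 and 1912 in the mutants. Control 2 was among the highest here, which sets Gas5 apart from the ribosomal protein genes. The difference was -1.01 (SE 0.15, limma adjusted p = 0.23), and -0.61 without the length trend. In the other 2 experiments Gas5 ranged from 3453 to 4402 and from 3887 to 4542, above the 3 Vangl mutants in every library. By DESeq2 with its default filtering, Gas5 had an adjusted p of 3.42e-06, the smallest of the 11 genes it called.

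Ddx4, an RNA helicase of germ cells (chr13:112598333-112652475, minus strand), was at 33.0, 33.5 and 33.6 in the controls and at 5.03, 10.8 and 10.8 in the mutants. The 3 controls were nearly equal and far above the mutants, and the difference was -1.86 (SE 0.34) with or without control 2. In the other experiments Ddx4 was at 11.0 to 23.0 and at 2.05 to 23.1, below the Vangl controls. Cym (127, 159 and 131 against 61.4, 68.0 and 75.8), Klhdc9 (246, 233 and 301 against 145, 128 and 164) and Beta-s, an adult beta globin (8705, 6850 and 8033 against 4694, 3215 and 4295), were lower in the same way. Scgb3a2, a secretoglobin of the airway, was at 22.7, 21.4 and 24.2 against 8.05, 3.94 and 8.86. Values under 100 rest on few reads.

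The remaining lower genes of widest gap were ORF63 (21.7, 35.4 and 24.2 against 11.1, 4.93 and 5.91), 2610017I09Rik (12.4, 12.1 and 10.5 against 5.03, 4.93 and 4.92), the liver gene Alb (18.6, 63.4 and 11.6 against 6.04, 4.93 and 0) and 2 histone genes. Hist1h2ai was at 182, 38.2 and 62.0 against 11.1, 16.8 and 7.88, and Hist1h2ad at 30.0, 22.4 and 29.4 against 10.1, 6.90 and 12.8. Histone messages carry no poly(A) tail, so their values depend on how RNA was selected. Over the 24 replication histone genes tested, 1 was higher and 4 lower at an unadjusted p of 0.05, and the median of -0.28 was 0.01 without the length trend.

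Among the genes higher in the mutants, Cubn, an endocytic receptor for vitamin B12 complexes (chr2:13276338-13491813, minus strand), was at 120, 171 and 116 in the controls and at 259, 288 and 298 in the mutants. The difference was 1.07 (SE 0.17, limma adjusted p = 0.23), and 0.52 without the length trend. Peg10, an imprinted gene derived from a retrotransposon, was at 2696, 4010 and 2465 against 5453, 5420 and 5827. Its difference of 0.90 (SE 0.17) was 0.57 without the trend. Tshz1, a zinc finger transcription factor, was at 2518, 2839 and 2235 against 4317, 3720 and 3784, Akap5, an anchor of protein kinase A, at 651, 899 and 716 against 1169, 1254 and 1306, and Nckap5 at 354, 428 and 342 against 556, 626 and 579. All 3 kept groups apart, and without the trend their differences were 0.39, 0.40 and 0.29.

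The other higher genes of widest gap were at low levels. Tfcp2l1, a transcription factor, was at 25.8, 24.2 and 11.6 in the controls and at 42.3, 53.2 and 49.2 in the mutants. Tcf23 (6.31 to 15.8 against 22.7 to 32.2), Nlrp10 (9.32 to 12.4 against 18.7 to 32.5), Vwce (6.31 to 11.2 against 17.1 to 23.6), Otogl (6.31 to 28.9 against 40.4 to 53.2) and the receptor kinase Alk (4.20 to 8.39 against 12.1 to 14.8) were each higher in all 3 mutants. Lrfn5 (53.6 to 84.8 against 117 to 133) and the protocadherin Pcdhb11 (25.8 to 37.3 against 52.3 to 64.0) were somewhat higher.

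**Figure D5:**
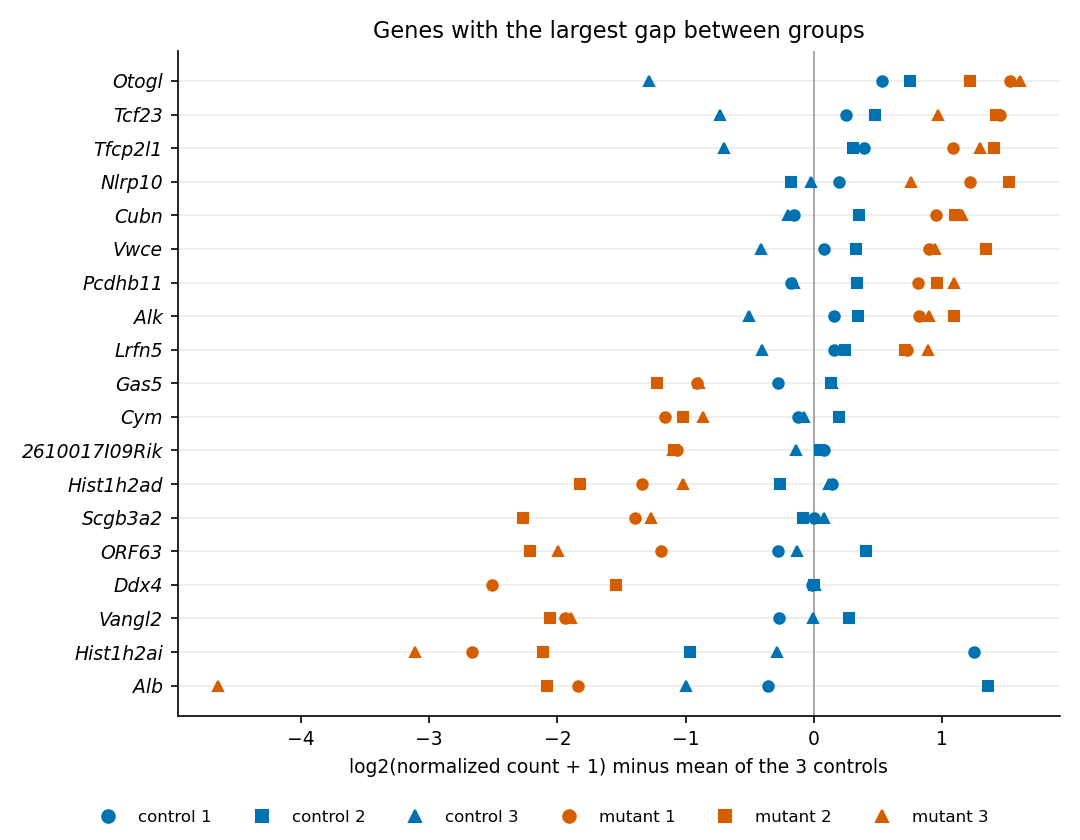
Log2 of the normalized count plus 1, minus the mean of the 3 controls (x axis), for the genes reported in each direction with the largest gap between groups (y axis); blue symbols are control libraries and orange symbols mutant libraries. Orange and blue symbols do not overlap in any row, which is how the rows were chosen, and in Ddx4 the controls coincide.

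Position near Vangl2 was looked at because the allele and its flanks are inherited together. Of 254 genes tested within 20 Mb on chromosome 1, the groups did not overlap for 69 (27.2%), against 22.3% of all genes, and within 2 Mb for 10 of 53 (18.9%). Klhdc9 lies 0.643 Mb, Fcer1g 0.771 Mb and Gas5 11.0 Mb from Vangl2, all on its side of lower coordinates. The share within 2 Mb lay below the background and the share within 20 Mb above it. By distance, it was 8 of 27 (29.6%) at 2 to 5 Mb, 12 of 65 (18.5%) at 5 to 10 Mb and 39 of 109 (35.8%) at 10 to 20 Mb. Beyond 20 Mb on the chromosome the share was 125 of 561 (22.3%). The shares were not adjusted for transcript length, and whether inheritance together with Vangl2 has a part was not tested.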

How the data were processed

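Embryonic lungs were snap frozen, RNA was extracted with a silica column kit, and libraries were sequenced on Illumina instruments. The submitters' processing notes name Trim Galore, HISAT2, featureCounts, DESeq2 and the build mm10. Strand settings and the annotation are not given in the sources used here. The deposited values are a signal that the authors made by dividing gene counts by a size factor per library. In all 6 libraries 100% of the values were whole reads (tolerance 0.01), and these recovered reads served the count tests. The authors' own columns (a mean, log2 fold changes and p-values; 3 columns) were not used. In the table, 27 symbols had been changed to dates and 2 are listed more than once. Values were tested as log2(normalized count + 1), which understates the change of low genes, with limma (version 3.58.1, R 4.3.3, mean-variance trend, group as the single term), with the Benjamini-Hochberg adjustment over all 14303 genes at a threshold of 0.05. Transcript length is that of the longest transcript in GENCODE release 21 for the mouse, matched by symbol (98.4% of the table's genes). The trend on length was removed per library by loess (span 0.5). edgeR (version 4.0.16) and DESeq2 (version 1.42.0) were alternatives, beside other pseudocounts, filters, scalings, a replicate block and the omission of each library. The limma fit, with and without removal of the length trend, was run on simulated counts with known changes. The other procedures were not run on simulated counts. Lists came from general knowledge, and a list is described by counts and its median, with no test of its own. Named genes were the core PCP genes, genes the study discusses, the 10 genes per direction with the largest gap between groups, the 5 per direction with the smallest p among genes with a mean of at least 100, and in each of 20 lists the 3 members with the smallest p and the most abundant one; some of these genes are not reported here. Kdm5d, Uty, Eif2s3y, Ddx3y, Xist, Rn45s and Edil3 were chosen after their values were seen. The members and the lists were chosen with earlier results of these data known. The study's methods call its repeats biological but do not tie a library to an embryo or litter, and the p-values measure the spread between these libraries.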

Additional observations from a re-analysis of the deposited data

How the results depend on the processing

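Control 2 stood with the mutants on transcript length, and on the first principal component with or without the length trend. With 3 libraries a group, counts of calls depended on single libraries. The number of genes that passed the adjusted threshold was 1 with all 6 libraries and between 0 and 6183 when a library was left out, the highest without control 2. It was 11 by DESeq2, 20 by DESeq2 without independent filtering, and 1749 with the length trend removed and control 2 left out. The settings that combine 2 choices, and DESeq2 without independent filtering, were chosen after seeing the data. Members of the lists that passed numbered 1, and 0 to 529, 2, 4 and 197 under those settings. Named genes that passed numbered 1, and 0 to 103, 7, 14 and 50. With the replicate block, 0 genes, 0 list members and 0 named genes passed, and Vangl2 differed by -1.96 (limma adjusted p = 0.0847). The deviations of same-numbered libraries from their group means correlated at 0.303, 0.049 and 0.0126. Differently numbered libraries were not set beside them, so whether the replicate numbers pair the libraries is not settled. Vangl2 ranged from -2.10 to -1.82 when a library was left out, and its adjusted p passed the threshold then without control 2 (5.72e-05) and missed it without any other library (0.0526 to 0.344). The other pseudocounts, filters and scalings tried and edgeR kept 1 call, Vangl2.

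The sign of some small differences turned. With the length trend removed, with or without the replicate block, this held for Bmpr1a (-0.0096), Celsr1 (-0.0098), Prickle1 (-0.016), Mrc1 (-0.016), Wnt5a (-0.033), Prickle2 (-0.044), Smo (-0.049), Actn4 (-0.061), Ptk2 (-0.080), Fzd6 (-0.086) and Scrib (-0.13). With control 2 left out as well, it held for Fzd2 (-0.0034), Ccnd1 (-0.0055), Cdh1 (-0.011), Fzd3 (-0.014), Mrc1 (-0.024), Prickle2 (-0.028), Etv5 (-0.031), Celsr1 (-0.046), Bmpr1a (-0.062), Fzd6 (-0.077), Actn4 (-0.088), Smo (-0.10), Ptk2 (-0.14), Scrib (-0.19), Prickle3 (0.017) and Sftpc (0.049). When 1 library was left out, the sign turned in at least 1 of the 6 fits for Dvl2 (-0.090 to 0.0021), Lamb3 (-0.14 to 0.050), Actb (-0.095 to 0.072), Actn4 (-0.0011 to 0.040), Smo (-0.0023 to 0.062), Ctnnb1 (-0.070 to 0.021), Aldh1a2 (-0.031 to 0.35) and Fzd6 (-0.14 to 0.20). The cause was not tested. Of 39 list medians, 11 turned sign with the length trend removed, 8 with control 2 left out as well, 2 of 37 with a minimum of 50 counts, 1 to 3 when a library was left out, and none under the other pseudocounts, scalings and tools.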

Other observations

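Edil3, an integrin ligand of the extracellular matrix (chr13:88821472-89323223, plus strand), was at 195, 183 and 163 normalized counts in controls 1, 2 and 3 and at 104, 128 and 116 in mutants 1, 2 and 3. The groups did not overlap, the difference was -0.63 (SE 0.15, limma adjusted p = 0.23), and it was -0.86 with the length trend removed. The gene was chosen after its values were seen, since the formal name of the Sox2-Cre line places the transgene at Edil3. In the other 2 experiments of the series, which do not use that line, Edil3 ranged from 193 to 270 and from 188 to 284, above every Vangl mutant. Whether the transgene has a part in the lower level was not tested.

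Of 6 RNAs without a poly(A) tail or kept in the nucleus, 1 was higher and 0 lower at an unadjusted p of 0.05, and the groups overlapped for every one. Their median was 0.81, or 0.21 without the length trend. Malat1, a long noncoding RNA kept in the nucleus, was at 1956, 3997 and 1149 in the controls and at 2908, 3292 and 3891 in the mutants. Proteasome subunits (34 genes) had a median of -0.33 and mitochondrial ribosomal proteins (76 genes) one of -0.40, and both medians were nearer to 0 with the length trend removed (-0.10 and -0.13). Without control 2, 32 of the proteasome genes and 75 of the mitochondrial ribosomal genes fell. Among 24 proliferation genes 3 were higher and 1 lower at an unadjusted p of 0.05, with a median of -0.10 and a summed level of 114239 to 129942 in the controls and 121573 to 129826 in the mutants. Glycolysis genes (20) had a median of -0.09, immediate early genes (11) one of -0.12, glial markers (8) one of 0.23 (0.47 without control 2 and 0.09 without the length trend), cartilage markers (8) one of 0.01 and polarity and adherens genes (23) one of 0.18, or -0.00 without the length trend. Pericyte markers (7) had a median of 0.20, which was -0.02 without the length trend and 0.82 without control 2, where 5 rose. The summed erythroid markers stood at 34585 to 58912 in the controls and 32507 to 46084 in the mutants, and liver and skeletal muscle markers summed to 304 to 605 and 76.8 to 180 over all 6 libraries.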
